A study of Caenorhabditis elegans with 2 samples.

Results

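Mitochondrial ATP synthase is built in Caenorhabditis elegans from many nuclear-encoded subunits, and 9 of their genes are described here: atp-1, atp-2, atp-3, atp-4, atp-5, asb-1, asb-2, asg-1 and asg-2, out of 19973 protein-coding nuclear genes. They were selected by name, with peaks of these data at some of them already known, so the peak values below chose the genes and are given as a description without a test. The assay was ChIP-seq of the product of C34B4.2, carried as a C-terminal GFP-FLAG fusion by the stable transgenic strain OP552 (unc-119(tm4063) III; wgIs552). The descriptions name an anti-GFP antibody, whereas the antibody field names C34B4.2 itself. Whole L1 larvae of mixed sex, starved after bleaching, were collected 6 h after synchronization, and 2 biological replicates form the only group. All cells of the larva were pooled, only 1 transgenic line was sampled, and the sources used here do not say which cells express the fusion. The promoter window of a gene reached from 1000 bp before to 200 bp after each of its annotated transcript starts, and windows of several genes can hold the same summit.

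ATP synthase is the rotary enzyme of the inner mitochondrial membrane that makes ATP from ADP and phosphate as protons flow back into the matrix. Its F1 head holds the catalytic sites, on beta subunits that alternate with alpha subunits, and its membrane part Fo holds the ring of c subunits that proton flow turns. A peripheral stalk, made of subunit b, subunit d, coupling factor 6 and the oligomycin sensitivity conferral protein (OSCP), keeps the head from turning with the ring. Subunit g sits in the membrane part and is known from yeast for its role in joining ATP synthase into dimers.

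The DNA at 4 summits upstream of ATP synthase genes shows the range of the data, from the strongest peak among the 9 genes to candidates below the authors' reproducibility threshold. Each line holds the 70 bases on either side of a pooled summit, read 5′ to 3′ in the direction of the gene, from the RefSeq WBcel235 genome. The atp-2 window is chrIII:5228097-5228237 on the plus strand. The window of Y82E9BR.3, which encodes the c subunit and is not among the 9 genes, is chrIII:1418828-1418968 on the plus strand. The asb-2 window is chrX:4469420-4469560 on the plus strand, and the atp-5 window is chrV:11124044-11124184 on the minus strand. Capitals mark GCGAGACC and GGGCGG on either strand and the pair TGGCA and TGCCA separated by 3 bases. These words were picked after the sequences had been read.
atp-2: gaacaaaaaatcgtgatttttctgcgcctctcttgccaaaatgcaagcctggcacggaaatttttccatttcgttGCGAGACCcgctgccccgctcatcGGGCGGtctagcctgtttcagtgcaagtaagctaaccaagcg
Y82E9BR.3: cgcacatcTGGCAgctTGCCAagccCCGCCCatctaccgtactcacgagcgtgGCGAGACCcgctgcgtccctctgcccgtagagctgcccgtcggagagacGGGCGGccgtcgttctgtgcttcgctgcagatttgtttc
asb-2: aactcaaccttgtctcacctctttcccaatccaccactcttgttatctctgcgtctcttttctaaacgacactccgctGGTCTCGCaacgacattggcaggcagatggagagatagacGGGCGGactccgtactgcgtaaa
atp-5: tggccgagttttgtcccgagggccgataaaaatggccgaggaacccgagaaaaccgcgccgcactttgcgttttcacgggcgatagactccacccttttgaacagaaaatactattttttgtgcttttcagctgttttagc
The atp-2 and Y82E9BR.3 windows shared a run of 14 bases that begins with the marked GCGAGACC and continues into the bases after it. That run occurred 2 times in the nuclear genome, counting both strands, and both copies lay at these summits. The atp-2 and asb-2 windows shared a run of 13 bases that ends with GCGAGACC, which occurred 186 times in the nuclear genome. The atp-5 window held none of the marked words.

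Both F1 genes carried peaks near the top of the authors' IDR-thresholded list, the list of 267 peaks that the submitters name as passing the irreproducible discovery rate (IDR) step. Peak signal is the authors' own value per peak, and ranks run from 1, the strongest, over 30000 pooled candidates. Together with the OSCP gene they made 3 of 9 genes with a thresholded summit, in a list where 1.38% of all protein-coding genes had one. In the pooled candidate list 8 of 9 genes had a summit in the window, where 38.1% of all genes had one. The submitters name the candidate lists as peaks and background given to the IDR step, so a candidate need not be a peak. Replicate 1 gave 8 of 9 beside 38.2% of all genes, and replicate 2 gave 7 of 9 beside 38.3%.

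**Figure D1:**
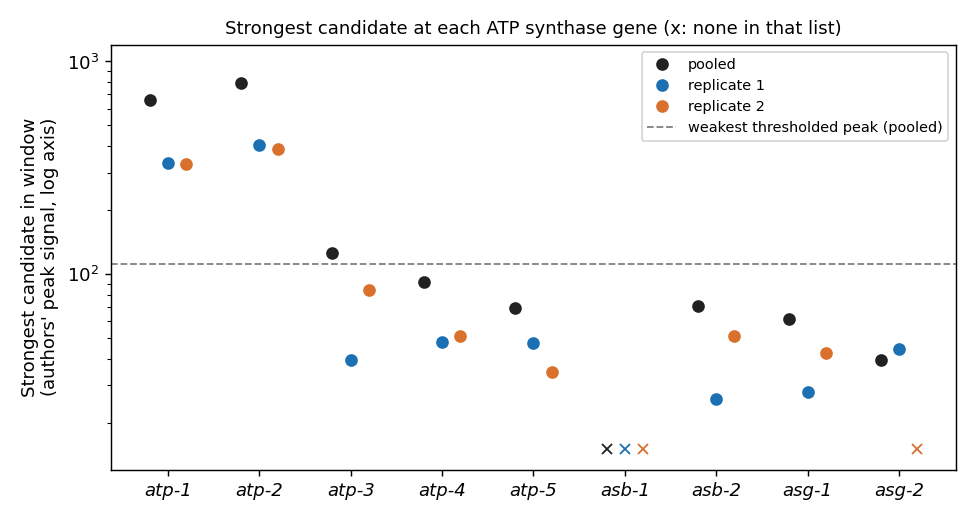
Authors' peak signal (log axis) of the strongest candidate in the promoter window of each of the 9 genes, in the pooled list and in each replicate. The pooled points of atp-1, atp-2 and atp-3 lie above the dashed line at 112, the weakest thresholded peak, and asb-1 has no point.

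The gene for the catalytic beta subunit, atp-2 (chrIII:5228417-5230536, plus strand), had the strongest peak of the 9 genes. Its signal was 791 in the pooled list (rank 3), 405 in replicate 1 (rank 2) and 386 in replicate 2 (rank 3). The replicates differed by 0.07 on the log2 scale, less than the SD of 0.52 over the 264 thresholded peaks with a candidate in both. The summit lay 250 bp upstream of the annotated start, between genes, and the replicate summits were 4 bp apart, against a median of 17 bp. The same summit lay 283 bp upstream of the divergent gene C34E10.10, annotated as a homolog of the rRNA-processing protein UTP23, and 286 bp upstream of C34E10.12, which encodes a CHCH domain protein. Which of these promoters the peak belongs to cannot be told apart by position.

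The alpha subunit gene atp-1 (chromosome I, 12652277 to 12654655, plus strand) had 1 summit in each list, at the annotated start. Its signal was 659 in the pooled list (rank 5), 333 in replicate 1 (rank 5) and 328 in replicate 2 (rank 6), so the replicates were almost equal, with a log2 ratio of 0.02. The summit was 1 bp upstream of the start in the pooled list, at the start in replicate 1 and 3 bp downstream in replicate 2. It also lay 189 bp upstream of mcrs-1, a divergent gene annotated as an FHA domain protein. Many C. elegans transcripts receive a spliced leader, and for these the annotated 5′ end need not be where transcription begins.

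The OSCP gene atp-3 (chromosome I, 5428533 to 5429908, minus strand) passed the threshold with a much weaker peak and unequal replicates. Its signal was 125 in the pooled list (rank 203), 39.5 in replicate 1 (rank 5341) and 84.1 in replicate 2 (rank 128). Replicate 1 was thus below replicate 2 by more than the usual spread, with a log2 ratio of -1.09. Among the 264 thresholded peaks, 8 had a ratio this low, atp-3 included. The pooled summit lay 1 bp inside the outermost of 4 annotated starts, in the 5′ UTR, and the replicate summits were 14 bp apart. The divergent gene F27C1.2, annotated as a copper transport protein, began 250 bp from the summit, and the windows of the noncoding RNAs F27C1.16 and F27C1.17 held it too. A second pooled candidate 237 bp upstream of the outermost start had a signal of 39.5 at rank 29910, close to the end of the list.

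**Figure D2:**
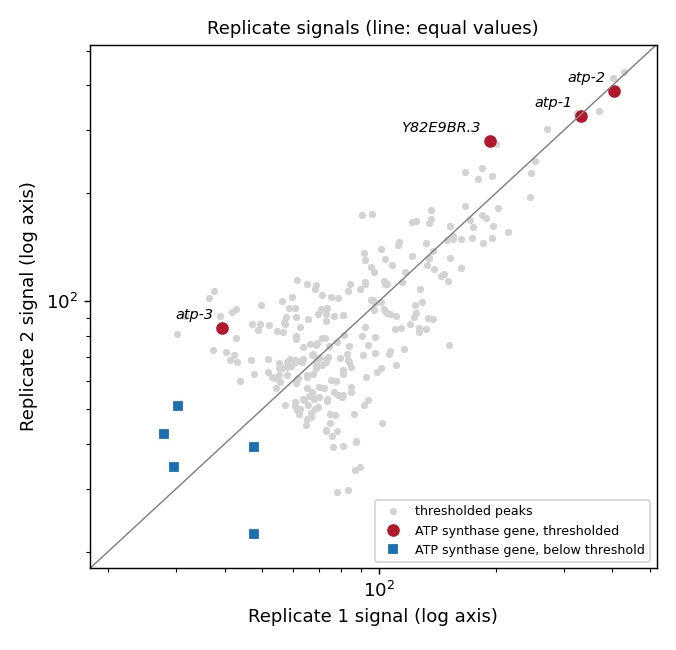
Signal in replicate 1 and replicate 2 (both log axes) of the 264 thresholded peaks with a candidate in both (grey). ATP synthase peaks, candidates below the threshold and Y82E9BR.3, outside the 9 genes, are marked beside the line of equal values. The atp-1 and atp-2 points lie close to the line, at log2 ratios of 0.02 and 0.07. Above it lie atp-3, at -1.09, and Y82E9BR.3, at -0.54.

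The other peripheral stalk genes had candidates in the pooled list but none above the threshold, and asb-1 had none at all. The gene for coupling factor 6, atp-4, came closest, at a pooled signal of 91.9 (rank 572). The last thresholded peak had a signal of 112 at rank 267 and the first pooled candidate outside also 112 at rank 268. The strongest atp-4 candidate lay 98 bp downstream of the start, in a coding exon, at 47.6 in replicate 1 and 39.3 in replicate 2. A second candidate lay 437 bp upstream, in the 3′ UTR of the neighbour alh-4, at 84.6 in the pooled list, 30.4 in replicate 1 and 51.2 in replicate 2. The replicates ordered the candidates of atp-4 differently: replicate 1 had its stronger one inside the gene and replicate 2 upstream.

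The gene for subunit d, atp-5, showed the same exchange of order. Its candidate 247 bp upstream, in the window printed above, had a signal of 68.8 in the pooled list (rank 3141), 47.5 in replicate 1 and 22.5 in replicate 2. A second, 846 bp upstream in a coding exon of lmtr-3, had 60.8 in the pooled list, 29.6 in replicate 1 and 34.4 in replicate 2. The divergent gene lmtr-3 is annotated as part of the lysosomal adaptor that activates MAPK and mTOR. Both summits lay close to annotated starts of lmtr-3, the one nearer to atp-5 at 72 bp and the second at 11 bp.

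Subunit b is encoded by the gene pair asb-1 and asb-2, and the pair differed in these lists. At asb-1 no list had a summit in the window; the nearest pooled candidate lay 780 bp downstream of the start, in a coding exon of the gene, at a signal of 57.3. At asb-2 the candidate printed above, 276 bp upstream, had a pooled signal of 70.6 (rank 2692) and 51.0 in replicate 2 (rank 436). Replicate 1 had no candidate within 200 bp of it, and its only candidate in the window, 931 bp upstream in the 3′ UTR of nmur-3, had a signal of 25.8. The weakest candidates listed had signals of 24.7 in replicate 1 and 20.1 in replicate 2, so that a missing candidate stands for a signal at or below about these levels and not for none.

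**Figure D3:**
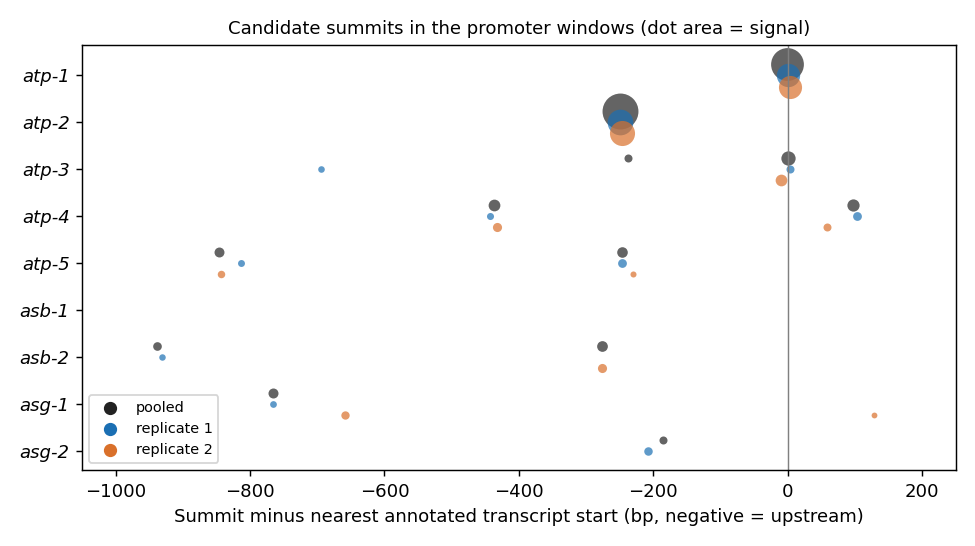
Distance of each candidate summit from the nearest annotated transcript start (bp, negative upstream) for the 9 genes, with dot area proportional to the authors' signal. The large dots of atp-1 sit at the start and those of atp-2 lie 250 bp upstream in the pooled list, while the replicates of asg-1 and asb-2 fall at different places.

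By the strongest pooled candidate per gene, the subunit g genes were the lowest of the 8 genes that had one. At asg-1 the pooled candidate, 766 bp upstream in a coding exon of mrps-15, had a signal of 61.5 (rank 5751) and 27.9 in replicate 1. The nearest replicate 2 candidate, at 42.7, was 107 bp away. At asg-2 the pooled candidate, 186 bp upstream, had a signal of 39.5 (rank 29920), equal after rounding to the weakest of the 30000. Its replicate 1 signal of 44.3 was higher, and replicate 2 had no candidate in the window.

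Over the 8 genes with a pooled candidate, the signal of the strongest one ran from 791 to 39.5. The authors' −log10 q was 2.10 at atp-1 and atp-2, 0.72 at atp-3, and between 0.19 and 0.29 at the 9 pooled candidates below the threshold. Over the 7605 genes with a pooled candidate, the strongest one had a median signal of 52.2, with quartiles of 45.4 and 63.0. The strongest candidates of atp-4, atp-5 and asb-2 were above the upper quartile, asg-1 was between the median and the upper quartile, and asg-2 was below the lower quartile. Of the 9 genes, 6 had a divergent upstream gene (66.7%), beside 46.2% of 19968 protein-coding genes. The upstream gene lay on the same strand at atp-4, asb-1 and asb-2, at gaps of 95, 237 and 751 bp. Whether the windows of these genes hold their promoters was not tested. Each of the 3 thresholded summits lay in the window of a divergent protein-coding neighbour. How often other thresholded summits do so was not counted.

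**Figure D4:**
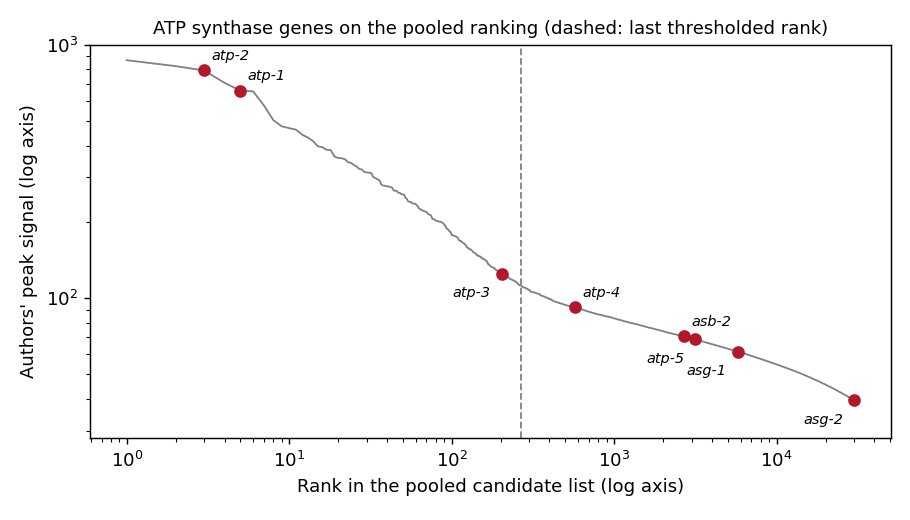
Authors' peak signal of all 30000 pooled candidates against rank (both log axes), with the strongest candidate of each gene marked. The dashed line at rank 267 separates atp-2, atp-1 and atp-3 from the other 5 genes with a candidate.

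The peaks most like these in signal over the pooled list and both replicates were sought among 272 genes at other thresholded promoter peaks. For atp-1 they were Y17G9B.5 and rpl-20, which share a peak of 654 in the pooled list, 325 in replicate 1 and 335 in replicate 2, at a distance of 0.05 (log2). For atp-2 they were T27E9.2 and abcf-2, tied with ant-1.1 at the same peak, the strongest of the list, 868 in the pooled list, 428 in replicate 1 and 437 in replicate 2, at a distance of 0.24. For atp-3 they were gpap-1 and scpr-1, at 135 in the pooled list, 38.9 in replicate 1 and 91.0 in replicate 2, a distance of 0.16.

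The share of G and C at the strongest pooled summit differed among the 8 genes that had one. Within 50 bases of the pooled summit, 60.4% of bases were G or C at atp-1, 56.4% at atp-2 and 48.5% at atp-3. The mean over thresholded peaks was 48.8% ± 7.49 (SD, n = 267) and over the other candidates 39.7% ± 7.91 (SD, n = 29733). At atp-1 only 11 thresholded peaks had a higher share. Below the threshold the share ran from 34.7% at asg-1, under the mean of the other candidates, to 54.5% at atp-4.

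Words were counted on both strands within 100 bases of the pooled summit. GCGAGACC was present at atp-2, asb-2 and Y82E9BR.3, at 15 of 267 thresholded peaks (5.62%) and at 212 of 29733 other candidates (0.713%). Its centre lay 8.5 bases downstream of the summit at atp-2 and 13.5 upstream at Y82E9BR.3, on the gene strand at both. At asb-2 the centre lay 11.5 bases downstream, on the other strand. Replicate summits of thresholded peaks were themselves a median of 17 bp apart. GGGCGG was present at atp-1, atp-2, atp-3, asb-2 and Y82E9BR.3, at 16.9% of thresholded peaks and 4.60% of other candidates. TGGCA and TGCCA separated by 3 bases were present at atp-1 and Y82E9BR.3, at 6 thresholded peaks (2.25%) and 0.246% of other candidates. Both GCGAGACC and GGGCGG were present at 5 thresholded peaks and at 22 other candidates, one of which was asb-2.

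Another 5 words of 6 bases had been noticed at peaks of these data in earlier work. The first, ACGCAG, can overlap the second word of the set, which is GACGCA. The word CGCGCA can likewise overlap the fourth word of the set, which is GCGCAC. The last of them was GCGTCA. Within 50 bases of the summit at least 1 of them stood at 123 thresholded peaks (46.1%) and at 8.41% of the other candidates. Within 100 bases, as for the words above, the shares were 55.8% and 15.5%, and CGCGCA then stood at atp-4. Neither atp-1 nor atp-2 held any of the 5. ACGCAG stood at atp-3, asb-2 and Y82E9BR.3, and GACGCA at asb-2 and Y82E9BR.3. A word that matches is only a description of the window. Word shares were not adjusted for the higher share of G and C at thresholded peaks.

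Outside the 9 genes stood 15 further genes for ATP synthase subunits, inhibitors and an assembly factor. Of these, 1 had a thresholded summit (6.67%, beside 1.38% of all protein-coding genes) and 9 had a pooled candidate (60.0%, beside 38.1%). The thresholded summit was that of Y82E9BR.3, a gene put on this list by name with earlier results of these data known. Its signals were 468 in the pooled list (rank 10), 193 in replicate 1 (rank 17) and 280 in replicate 2 (rank 8). Its summit lay 298 bp upstream of the start, inside the noncoding RNAs Y82E9BR.27 and Y82E9BR.30, and 69.3% of the bases around it were G or C, a share that 1 thresholded peak exceeded. The inhibitor gene mai-2 came next, at 106 in the pooled list (rank 312). Its strongest candidate was 60.7 in replicate 1, 579 bp upstream of the start, and 50.8 in replicate 2, 416 bp upstream. R04F11.2, for subunit e, had 76.2 in the pooled list and F44E5.1, also annotated as subunit e, had 73.0. The others of these genes with a pooled candidate lay between 47.1 and 62.0: hpo-18 (epsilon), Y69A2AR.18 (gamma), mai-1, F58F12.1 (delta) and R02D5.8 (s). ZC262.5, R05D3.6, R53.4, C05C8.1, Y116A8C.27 and Y70G10A.4 had none in the pooled list. Of the F1 head, therefore, alpha and beta passed the threshold and gamma, delta and epsilon did not.

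Among the other respiratory chain genes the counts with a thresholded summit were 1 of 34 for complex I, 0 of 5 for complex II, 1 of 11 for complex III, 3 of 7 for complex IV, 1 of 2 for cytochrome c and 1 of 4 for the adenine nucleotide translocators. The complex IV genes were cox-5A at a pooled signal of 430, cox-5B at 256 and cox-6A at 119. Their summits lay 299, 27 and 812 bp upstream of the start. The carrier gene ant-1.1, whose product exchanges ADP and ATP across the inner membrane, and T27E9.2 of complex III shared the strongest peak, 868. Its summit lay 35 bp upstream of the ant-1.1 start but 544 bp upstream of the T27E9.2 start. The cytochrome c gene cyc-2.1 had 123, at 176 bp upstream, and nduf-2.2 of complex I had 118, at 810 bp upstream. None of the 21 genes of the vacuolar ATPase, a related rotary proton pump of acidic organelles, had a thresholded summit; 12 had a pooled candidate, the strongest at vha-2 with 96.9. Over all protein-coding genes the shares were 1.38% with a thresholded summit and 38.1% with a pooled candidate. Beside the thresholded share, 0 of 21 or 1 of 34 genes does not set a list apart. No difference between these lists was tested.

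**Figure D5:**
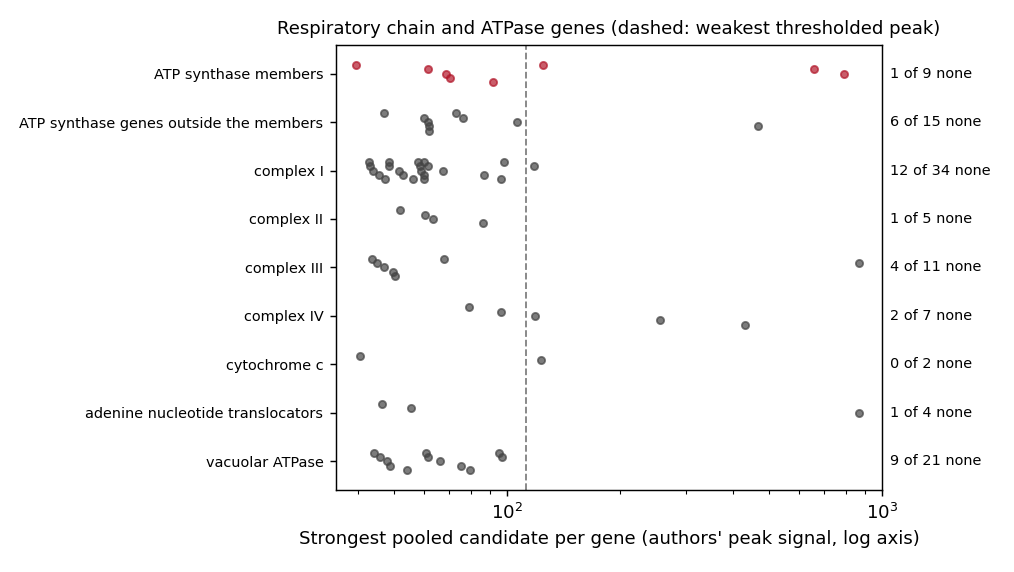
Strongest pooled candidate per gene (authors' peak signal, log axis) for the 9 genes, the further ATP synthase genes and the other lists, with the number of genes that have none at the right. To the right of the dashed line at 112 stand 3 of 9 genes in the top row, 3 of 7 for complex IV and none for the vacuolar ATPase. Over all protein-coding genes 1.38% had a thresholded summit.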

How the data were processed

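Deposited ce11 peak files were used: an IDR-thresholded list, a pooled candidate list and a candidate list per replicate. Peak signal (column 7) and −log10 q (column 9) are the authors' values, per the narrowPeak layout of the deposited files. The lists were made with a control library, per the deposited descriptions; aligner, caller and IDR threshold are not named in the sources used here. Read depth is unknown, so no interval is given. Pooled signal is close to the sum of the replicate signals (median ratio 1.00). Summits were matched, with Python 3.11.15, to Ensembl release 115 WBcel235 transcript starts, and gene coordinates are of that annotation. Product names and the genome sequence are of RefSeq WBcel235. Window matching was tested on simulated summits. The 9 genes, the gene lists and the words were chosen with earlier results of these data known. By rule, named genes are the 9 genes, all further ATP synthase genes, neighbours sharing a thresholded summit, list genes with a thresholded summit, and the 2 most similar genes per thresholded peak; lmtr-3, alh-4, nmur-3, mrps-15, vha-2, sqd-1, pdi-3 and ubql-1 were named after their values were seen. With 1 group, no test was made. Alternatives were other windows, peak overlap, stricter lists, single replicates and nearest-start assignment.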

Additional observations from a re-analysis of the deposited data

How the results depend on the processing

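For a single replicate its 267 strongest candidates were taken, with no IDR step. The presence of summits at atp-1, atp-2 and Y82E9BR.3 held in every alternative tried. At pooled ranks of 3 to 10 and replicate ranks of 2 to 17, these peaks could not drop out of the stricter or single-replicate lists. The summit of atp-3 was lost when only the 133 strongest thresholded peaks were kept and when replicate 1 alone was ranked. The count of the 9 genes with a thresholded summit, and that shared with a divergent neighbour, were then 2 in place of 3. With 1 replicate left out the counts ran from 2 to 3 for both, from 7 to 8 for pooled candidates, and from 6 to 7 for the 84 genes of the other lists. For those lists the count of 7 became 4 with a window of 500 bp upstream to 0 bp downstream and 4 with the 133 strongest peaks. Of 31 recounts, 29 stayed within 1.5 times the main count, among them those that fell from 3 to 2, which lie exactly on that bound. Single replicates give lower signals than the pooled list because pooled signal is close to their sum, except asg-2. Candidates are limited to 30000 per list.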

Other observations

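Both GCGAGACC and GGGCGG stood within 100 bases of the summit at 5 thresholded peaks. The strongest (rank 1, signal 868) lay in the windows of ant-1.1, T27E9.2 and abcf-2. The others stood at atp-2 (rank 3, 791), at Y82E9BR.3 (rank 10, 468), at sqd-1 (rank 40, 276) and between pdi-3 and ubql-1 (rank 74, 213). These genes are named after their values were seen. The atp-2 peak also lay in the windows of C34E10.10 and C34E10.12. Among the 20 strongest pooled candidates, 3 held both words. The words were picked after the atp-2 and Y82E9BR.3 windows had been read, so the choice itself put those peaks into these counts. No candidate of any list lay on the mitochondrial genome, which encodes the a subunit of ATP synthase. As aligner and caller are not named, whether that genome was searched for peaks is unknown.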
